A study of Mus musculus with 70 samples.

Results

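Mt1, Mt2, Slc39a14 and Slc30a1 are 4 of the 55011 gene symbols in a count table of mouse muscle libraries. They were chosen by name: Mt1 and Mt2 are the metallothioneins that most tissues make, and Slc39a14 and Slc30a1 are a zinc importer and a zinc exporter of the cell surface. The table held 70 polyadenylated RNA libraries in 28 groups and 6 experiments. All libraries were from hindlimb or tibialis anterior muscle, and all but the whole-muscle libraries were made from 1000 cells sorted 2 times. The cells studied most were MmSCs, the mesenchymal stromal cells that lie between the fibres of muscle.

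In the first experiment, C57BL/6J mice were injected intraperitoneally and MmSCs were taken from muscle that had not been injured. The injection held the interleukins Il-1b and Il-17A, tumour necrosis factor (TNFa) and oncostatin M (Osm), all 4 together (the mix, with 2 libraries at 2 h, 1 at 4 h and 2 at 8 h), singly or as pairs of Osm with 1 other (2 libraries each, at 2 h), or PBS (2 libraries, time not stated in the labels). In the second, CD31+ cells (endothelial), CD45+ cells (leukocytes), MmSCs and MuSCs (muscle stem cells) of C57BL/6J mice were compared 1 day after an injection of cardiotoxin, which kills muscle fibres, and on day 0 without it (3 libraries each). In the third, MmSCs of Il6RD mice, whose Il6-expressing cells carry Thy1.1, were sorted 12 h after cardiotoxin into a positive (Thy1.1+) and a negative (Thy1.1-) gate (3 each). In the fourth, whole tibialis anterior muscle of C57BL/6J mice given an anti-Cxcl5 antibody or IgG intraperitoneally was taken 7 days after cardiotoxin (3 each). In the fifth, MmSCs came from dystrophin-deficient mdx mice (DMDmdx) aged 2.5 weeks (3), 7 weeks (3) and 12.5 weeks (2), with no wild-type group of those ages. In the sixth, Il1b-KO MmSCs (3) were set against those of Il1b-WT littermates (2) 1 day after cardiotoxin. The labels do not say whether the libraries of a group came from separate animals, and p-values therefore reflect library-to-library spread, part of which may be technical.

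Metallothioneins are small, cysteine-rich proteins of the cytosol that bind zinc and copper, so a cell that holds more of them can buffer more free metal. The ZIP proteins (genes Slc39a) bring zinc into the cytosol and the ZnT proteins (genes Slc30a) take it out of the cell or into vesicles. Slc39a14, or ZIP14, also carries iron and manganese and is known in liver as an importer induced in the acute phase by Il-6. Mtf1, the zinc-sensing transcription factor, binds metal response elements before metallothionein genes and before Slc30a1, and glucocorticoids and cytokines of the Il-6 family, to which Osm belongs, are known inducers of Mt1 and Mt2 in liver.

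Mt1 and Mt2 are neighbours on mouse chromosome 8 (build GRCm38, chr8:94179082-94180327 and chr8:94172664-94173568, both on the plus strand), 5513 bases apart. Mt3 and Mt4, the brain and squamous-epithelium forms, lie in the same cluster. Slc39a14 is at chr14:70303469-70351425 on the minus strand and Slc30a1 at chr1:191906767-191913247 on the plus strand. The core of the metal response element, TGCACNC or TGCGCNC on either strand, was searched in RefSeq windows (GRCm38.p6) that run from 250 bases before to 50 bases after each gene's start. Windows were at hand for 3 of the 4 genes and none was used for Slc39a14. The matches are shown because the 2 metallothioneins and the exporter are known targets of Mtf1, which binds this element. Each is printed 5′ to 3′ on its own strand with 8 bases on either side, and the capitals mark the core.
Mt1 at chr8:94179058-94179080, plus strand: tcccgctgTGCACACtggcgctc
Mt1 at chr8:94179083-94179105, plus strand: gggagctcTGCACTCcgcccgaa
Mt1 at chr8:94179101-94179123, plus strand: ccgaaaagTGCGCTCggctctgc
Mt2 at chr8:94172387-94172409, plus strand: atcgcctcTGCACCCggcccctc
Mt2 at chr8:94172482-94172504, plus strand: agacccttTGCGCTCagctcctt
Mt2 at chr8:94172560-94172582, minus strand: acagagccTGCACACgccctccc
Mt2 at chr8:94172614-94172636, minus strand: cctgggccTGCGCACgacccgaa
Slc30a1 at chr1:191906730-191906752, minus strand: ctttgcttTGCACTCggaacccc
Slc30a1 at chr1:191906803-191906825, minus strand: gcggcgacTGCGCTCggcccgga
Mt1 thus had 3 matches, Mt2 4 and Slc30a1 2. In that order, 1, 3 and 1 of them lay before the start used and 2, 1 and 1 after it. Of 32851 windows of this length, 25.7% had at least 1 match, 7.11% at least 2, 1.97% at least 3 and 0.517% at least 4. The spacing TTCNNNGAA, which STAT factors bind, was in none of the 3 windows and in 8.30% of all windows. The antioxidant core TGACNNNGC was in the Mt2 window and the Slc30a1 window once each, not in that of Mt1, and in 12.4% of all windows. A match is a run of letters and not a measured site. Other annotated Mt1 transcripts start 122 and 152 bases after the start used here, and another Mt2 transcript starts 242 bases after that of Mt2. The windows leave out the bases just before those starts.

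Library totals ran between 2252373 and 8408842 counts. No 2 libraries of a group held the same values, and all differed by more than sampling noise. Each sorted compartment carried its own defining gene: Pecam1 reached 1943 to 2279 CPM (a gene's count scaled to its library's total) in CD31+ libraries, Ptprc 368 to 916 CPM in CD45+ libraries, Pax7 222 to 799 CPM in MuSC libraries and Pdgfra 441 to 742 CPM in MmSC libraries of the same experiment. Il1b, the deleted gene, had 0, 0 and 1 counts in the Il1b-KO libraries, against 2 and 5 in the Il1b-WT libraries, too few to check the genotype by level. An antisense gene, Gm45774, overlaps Mt2 and had at most 605 counts in a library. The antisense gene 1700034H15Rik overlaps Slc30a1 and had at most 10. Mt1 and Mt2 share no run over 20 bases. Reads of Slc39a14 are less sure, since 268 other genes share at least 1 of its 30-base words.

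The mix of cytokines raised 3 of the 4 genes in MmSCs within 2 h: Mt1, Mt2 and Slc39a14. The exporter Slc30a1 was not among them. Mt1 stood at 251 and 189.9 CPM in PBS libraries, at 7899 and 7916 CPM 2 h after the mix, at 11065 CPM in the 4 h library and at 8745 and 8294 CPM at 8 h. All 5 mix libraries lay far above both PBS libraries. Mt2 stood at 102 and 71.8 CPM in PBS libraries, at 2672 and 2829 CPM at 2 h, at 4782 CPM at 4 h and at 4011 and 3643 CPM at 8 h. Its groups did not overlap PBS either. Slc39a14, the importer, stood at 22.0 and 21.9 CPM in PBS libraries, at 615 and 494 CPM at 2 h, at 875 CPM at 4 h and at 729 and 719 CPM at 8 h. The 2 PBS libraries were almost equal, and all mix libraries lay far above them.

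In the fit over the 21 libraries of the experiment, the log2 changes at 2 h were 5.68 ± 0.29 for Mt1 (SE, adjusted p = 3.23e-12), 5.50 ± 0.35 for Mt2 (adjusted p = 8.9e-11) and 5.17 ± 0.16 for Slc39a14 (adjusted p = 1.59e-14). Here and below, changes and adjusted p-values are from edgeR's quasi-likelihood test, adjusted after Benjamini and Hochberg for every gene in the fit, and a gene is called at an adjusted p under 0.05. So 3 of the 4 genes were called at 2 h, as were 38.5% of the 15965 genes tested. Slc39a14, raised 36.1-fold on the fitted scale, had the smallest p of all 15965 genes at 2 h, and also at 4 h and at 8 h. At 4 h, where 36.4% of genes were called, the log2 changes were 5.89 ± 0.31 for Mt1, 6.02 ± 0.38 for Mt2 and 5.55 ± 0.17 for Slc39a14, from 1 library that was assumed to vary like the other groups. At 8 h, where 28.4% were called, they were 5.32 ± 0.29, 5.51 ± 0.35 and 5.09 ± 0.16 in the same order. In bulk RNA, fewer cells that carry a transcript and less of it per cell cannot be told apart.

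None of the 3 was called between 8 h and 2 h, a comparison in which 35.3% of genes were called. The log2 differences were -0.36 ± 0.24 for Mt1 (adjusted p = 0.262), 0.01 ± 0.29 for Mt2 (adjusted p = 0.982) and -0.08 ± 0.13 for Slc39a14 (adjusted p = 0.669, 95% interval -0.36 to 0.19). With no low-count filter Mt1 was called, at -0.32 (adjusted p = 0.0191). The CPM of Mt2 and Slc39a14 were higher at 8 h than at 2 h. The fit scales libraries by TMM (trimmed mean of M-values), whose factor averaged 1.14 at 8 h and 0.823 at 2 h, against 1.18 in PBS libraries, and on that scale both were near 0 difference. The sum of the endothelial marker list (6 genes) was 104 to 120.2 CPM at 2 h and 60.8 to 65.2 CPM at 8 h, against 254 to 313 CPM in PBS libraries, and the leukocyte list (7 genes) reached at most 12.9 CPM at 2 h and 5.68 CPM in PBS libraries. The part of the endothelial list in these results was not tested.

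**Figure D1:**
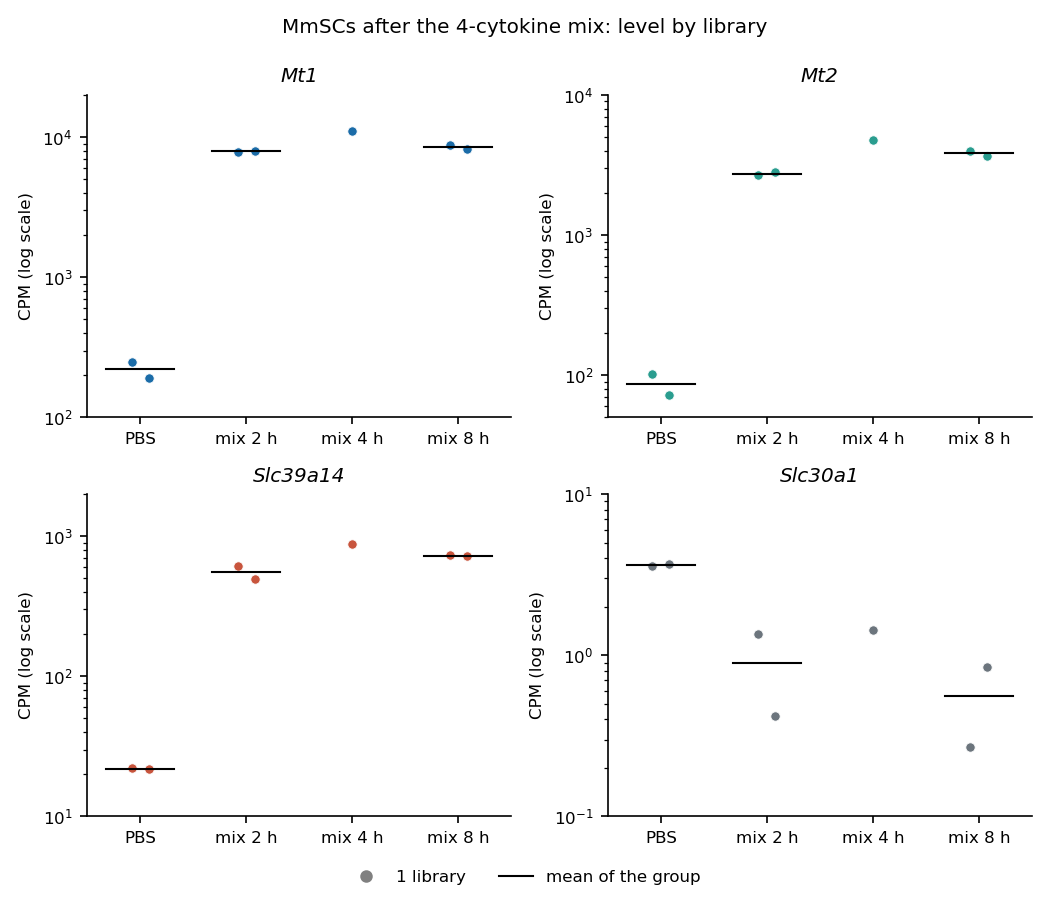
CPM of each of the 4 genes (log axis) in MmSC libraries after PBS and 2, 4 and 8 h after the 4-cytokine mix, with 1 point per library. Mt1, Mt2 and Slc39a14 lie far above PBS in all 5 mix libraries, while Slc30a1 lies at or below 1.43 CPM in them, under its PBS level.

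Slc30a1, which exports zinc at the plasma membrane and is known as a target of Mtf1, was rare in MmSCs. It had 24 and 23 counts in PBS libraries (3.59 and 3.68 CPM), 11 and 3 counts at 2 h (1.36 and 0.421 CPM), 12 counts at 4 h (1.43 CPM) and 2 and 5 counts at 8 h (0.269 and 0.843 CPM). The mix libraries were all below the PBS libraries. In uninjured muscle, Slc30a1 averaged 18.6 CPM in CD31+ cells and 2.13 CPM in MmSCs. The endothelial list summed to 60.8 to 65.2 CPM at 8 h, against 254 to 313 CPM in PBS libraries. Its part in the lower values of Slc30a1 was not tested. The log2 change was -1.47 ± 0.80 at 2 h (adjusted p = 0.16), -1.10 ± 0.97 at 4 h (adjusted p = 0.404) and -2.67 ± 0.88 at 8 h (adjusted p = 0.0263). The call at 8 h was lost without mix library 1 or without either PBS library, with adjusted p up to 0.209, so at this depth the fall rests on few counts.

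Other zinc genes were taken from lists of the whole families. Of the 14 ZIP genes, 11 were tested at 2 h. With Slc39a14 itself, 6 rose and 2 fell, where 38.5% of all genes were called, and their median log2 change was 1.17, against -0.06 for all genes. Next to Slc39a14, Slc39a10 rose by 1.91 ± 0.15 (adjusted p = 2.17e-09), Slc39a1 by 1.17 ± 0.12 (adjusted p = 1.01e-07), and both are importers of the cell surface. Slc39a13, which is known to act on zinc of the secretory pathway in connective tissue, fell by 1.38 ± 0.19 on the log2 scale (adjusted p = 7.99e-06). At 8 h, 5 of 11 rose and 1 fell, where 28.4% of all genes were called. Slc39a8, the closest relative of Slc39a14, rose at 8 h by 3.80 ± 0.49 (adjusted p = 5.3e-06). Of the 10 ZnT genes, 6 were tested at 2 h: 2 rose, none fell, and the median was 0.11. The 2 were Slc30a7 (0.71 ± 0.14) and Slc30a6 (1.02 ± 0.21), which load zinc into the Golgi and its vesicles. Mtf1 was not called after the mix or any single cytokine.

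Mt4 was also higher at 2 h, with 43 and 13 counts in mix libraries, against 2 and 0 in PBS libraries (ratio of summed counts scaled to library totals 23.8, 95% counting interval 6.30 to 202, adjusted p = 0.00201). Mt3 had no count at 2 h, against 11 and 0 in PBS libraries, and was not called. In the iron list, which holds Slc39a14's second metal, 7 of 13 tested genes rose and 1 fell at 2 h, where 38.5% of all genes were called (median log2 change 0.59). Tfrc, the transferrin receptor, rose by 5.24, Slc11a2, an iron importer, by 3.02 and Steap4, a metalloreductase, by 3.43. In the copper list, 1 of 6 rose at 2 h, where 38.5% of all genes were called. It was the importer Slc31a1 (0.75 ± 0.17, adjusted p = 0.00134). Of 8 genes known as targets of the glucocorticoid receptor, 5 rose and 2 fell at 2 h, where 38.5% of all genes were called. At 8 h, where 28.4% of all genes were called, all 8 rose (median log2 change 1.85, against 0.07 for all genes). Of 8 known targets of STAT3, 7 rose at 2 h, where 38.5% of all genes were called (median 3.00).

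Given singly, Il-1b, Osm and TNFa each raised Mt1, Mt2 and Slc39a14 at 2 h, in different orders for the metallothioneins and the importer. Mt1 had 7455 and 6976 CPM after Il-1b, 2796 and 2598 CPM after TNFa and 8880.4 and 7898 CPM after Osm, against 251 and 189.9 CPM after PBS. Mt2 had 3103 and 2988 CPM after Il-1b, 1137 and 1216 CPM after TNFa and 3197 and 2941 CPM after Osm, against 102 and 71.8 CPM after PBS. Both metallothioneins were thus about as high after Il-1b as after Osm, with overlapping libraries for Mt2, and lowest of the 3 after TNFa. Slc39a14 had 497 and 382 CPM after Il-1b, 148 and 142 CPM after TNFa and 217 and 225 CPM after Osm, against 22.0 and 21.9 CPM after PBS. Its 3 groups did not overlap one another, with Il-1b highest and TNFa lowest.

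The log2 changes of Mt1 were 5.35 ± 0.29 for Il-1b (adjusted p = 1.61e-11), 5.50 ± 0.29 for Osm (adjusted p = 1.21e-11) and 3.76 ± 0.27 for TNFa (adjusted p = 3.52e-09). Those of Mt2 were 5.45 ± 0.35, 5.39 ± 0.35 and 3.91 ± 0.33 in that order. Those of Slc39a14 were 4.63 ± 0.16 (adjusted p = 7.53e-14), 3.58 ± 0.15 (adjusted p = 1.34e-12) and 2.87 ± 0.15 (adjusted p = 7.19e-11). Each of the 3 cytokines thus called 3 of the 4 genes, where 33.1% of all genes were called for Il-1b, 34.3% for Osm and 14.8% for TNFa. Slc30a1 was called for none of them, with log2 changes of -1.45 ± 0.81 for Il-1b, -0.20 for Osm and 0.35 for TNFa. All comparisons with PBS share the same 2 PBS libraries. The endothelial list summed to 110 to 139 CPM after Il-1b, 179 to 209.7 CPM after TNFa and 103 to 109 CPM after Osm, against 254 to 313 CPM after PBS. The satellite-cell list (6 genes) summed to 575 to 579 CPM after Il-1b, 323 to 327 CPM after TNFa and 36.4 to 43.8 CPM after Osm, against 57.7 to 68.7 CPM after PBS. Nearly all of it was Vcam1, an adhesion molecule, at 565 to 572 CPM after Il-1b and 316 to 325 CPM after TNFa, while Pax7, which defines satellite cells, was at most 0.151 CPM after any of the 3. The part of the endothelial list in these changes was not tested.

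Il-17A left Slc39a14 near its PBS level and its metallothionein libraries were uneven. Mt1 had 260.3 and 637 CPM after Il-17A, against 251 and 189.9 CPM after PBS. Mt2 had 98.0 and 315 CPM after Il-17A, against 102 and 71.8 CPM after PBS. The first library lay close to or within the PBS range and the second above it. The log2 changes were 1.04 ± 0.24 for Mt1 (adjusted p = 0.0179) and 1.26 ± 0.30 for Mt2 (adjusted p = 0.0206), 2 of the 4 genes, where 4.95% of genes were called. Without the second Il-17A library they came to 0.25 and 0.18 and neither was called, and neither was called without either PBS library. Slc39a14 had 17.9 and 16.5 CPM after Il-17A, against 22.0 and 21.9 CPM after PBS, a log2 change of -0.34 ± 0.16 that was not called (adjusted p = 0.261). Of the 11 ZIP genes tested, only Slc39a1 rose with Il-17A (1.08, adjusted p = 3.94e-05), and none of 13 iron genes was called, where 4.95% of all genes were. With TNFa, 5 iron genes rose and 2 fell, where 14.8% of all genes were called.

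The 4 single cytokines were compared in 6 pairs. Between Osm and Il-1b, where 9.65% of genes were called, Mt1 (log2 difference 0.15, adjusted p = 0.808) and Mt2 (-0.06, adjusted p = 0.956) were not, and Slc39a14 was lower after Osm (-1.05 ± 0.13, adjusted p = 1.11e-05). Osm raised all 3 genes more than TNFa did (17.8% of genes called), by log2 1.74 ± 0.24 for Mt1 (adjusted p = 2.95e-05), 1.48 for Mt2 (adjusted p = 0.00106) and 0.71 ± 0.14 for Slc39a14 (adjusted p = 0.000762). Il-1b also raised all 3 more than TNFa did (10.3% called), by 1.59 for Mt1, 1.54 for Mt2 and 1.76 ± 0.14 for Slc39a14. Against Il-17A, all 3 genes were higher after Il-1b (25.4% called), Osm (26.1% called) and TNFa (6.22% called), and the log2 difference of Slc39a14 was 4.97, 3.92 and 3.21 in that order.

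Adding Il-1b or TNFa to Osm raised the importer further, while the metallothioneins were not called. Slc39a14 had 427 and 466 CPM after Osm with Il-1b, 422 and 355 CPM after Osm with TNFa and 262 and 259 CPM after Osm with Il-17A, against 217 and 225 CPM after Osm alone. No pair overlapped Osm alone. It rose over Osm alone by log2 1.20 ± 0.14 with Il-1b (adjusted p = 2.6e-06, 1 of the 4 genes called and 13% of all genes) and by 0.90 ± 0.13 with TNFa (adjusted p = 0.000175, 1 of 4 and 4.47% of all genes). With Il-17A the difference was 0.26 (adjusted p = 0.537), and none of the 4 genes was called, where 1.22% of all genes were. Mt1 had 10696 and 9121 CPM after Osm with Il-1b, 9008 and 8814 CPM after Osm with TNFa and 9747 and 8409.9 CPM after Osm with Il-17A, against 8880.4 and 7898 CPM after Osm alone. Its log2 differences from Osm alone were 0.43 with Il-1b (adjusted p = 0.267), 0.18 with TNFa (adjusted p = 0.79) and 0.14 with Il-17A, none of them called, and those of Mt2 were 0.53, 0.29 and 0.11. With no low-count filter Mt1 and Mt2 were called with Il-1b (adjusted p = 0.002 and 0.000315). Against PBS, each pair called Mt1, Mt2 and Slc39a14, where 41.9% of genes were called with Il-1b, 37% with TNFa and 35.6% with Il-17A. The endothelial list summed to 81.9 to 116 CPM after Osm with TNFa, against 254 to 313 CPM after PBS. Its part in the changes against PBS was not tested. Slc30a1 was called with 1 pair, at 6 and 1 counts after Osm with TNFa, against 24 and 23 counts after PBS (log2 change -2.31 ± 0.88, adjusted p = 0.0444). It was no longer called without Osm with TNFa library 2 or without either PBS library (adjusted p up to 0.236).

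For Mt1, Mt2 and Slc39a14 the pairs fell far short of the sum of the single log2 changes. The interaction term of Osm with Il-1b, the log2 change of the pair less those of both cytokines alone, was -4.92 ± 0.35 for Mt1, -4.92 ± 0.43 for Mt2 and -3.43 ± 0.20 for Slc39a14 (adjusted p = 1.51e-08, 2.28e-07 and 1.24e-09), where 15.8% of genes were called. The term of Osm with TNFa was -3.58 ± 0.35 for Mt1, -3.62 ± 0.42 for Mt2 and -1.97 ± 0.20 for Slc39a14 (adjusted p = 4.2e-06, 2.72e-05 and 6.05e-06), where 5.91% of genes were called. That of Osm with Il-17A was not called for any of the 3, where 2.56% of genes were called (-0.90 for Mt1, -1.16 for Mt2 and 0.60 for Slc39a14), though it was for Mt1 and Mt2 with no low-count filter or without the first Il-17A library. On the linear scale, Mt1 in the Osm with Il-1b libraries averaged 9908 ± 1113 CPM (SD, n = 2), against 8389 ± 694 CPM for Osm alone and 7216 ± 338 CPM for Il-1b alone (n = 2 each). Slc39a14 averaged 447 ± 27.9 CPM after the pair, against 221 ± 5.83 CPM for Osm and 439 ± 81.6 CPM for Il-1b, so the pair's libraries lay within the range of Il-1b alone. After Osm with TNFa, Slc39a14 averaged 389 ± 47.4 CPM, against 145 ± 4.42 CPM for TNFa alone and 21.9 CPM for PBS. Mt1 averaged 8911 ± 137 CPM after that pair, against 2697 ± 140 CPM for TNFa alone. A negative log2 term means less than the product of the single folds, and does not show that cytokines fail to add in CPM.

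**Figure D2:**
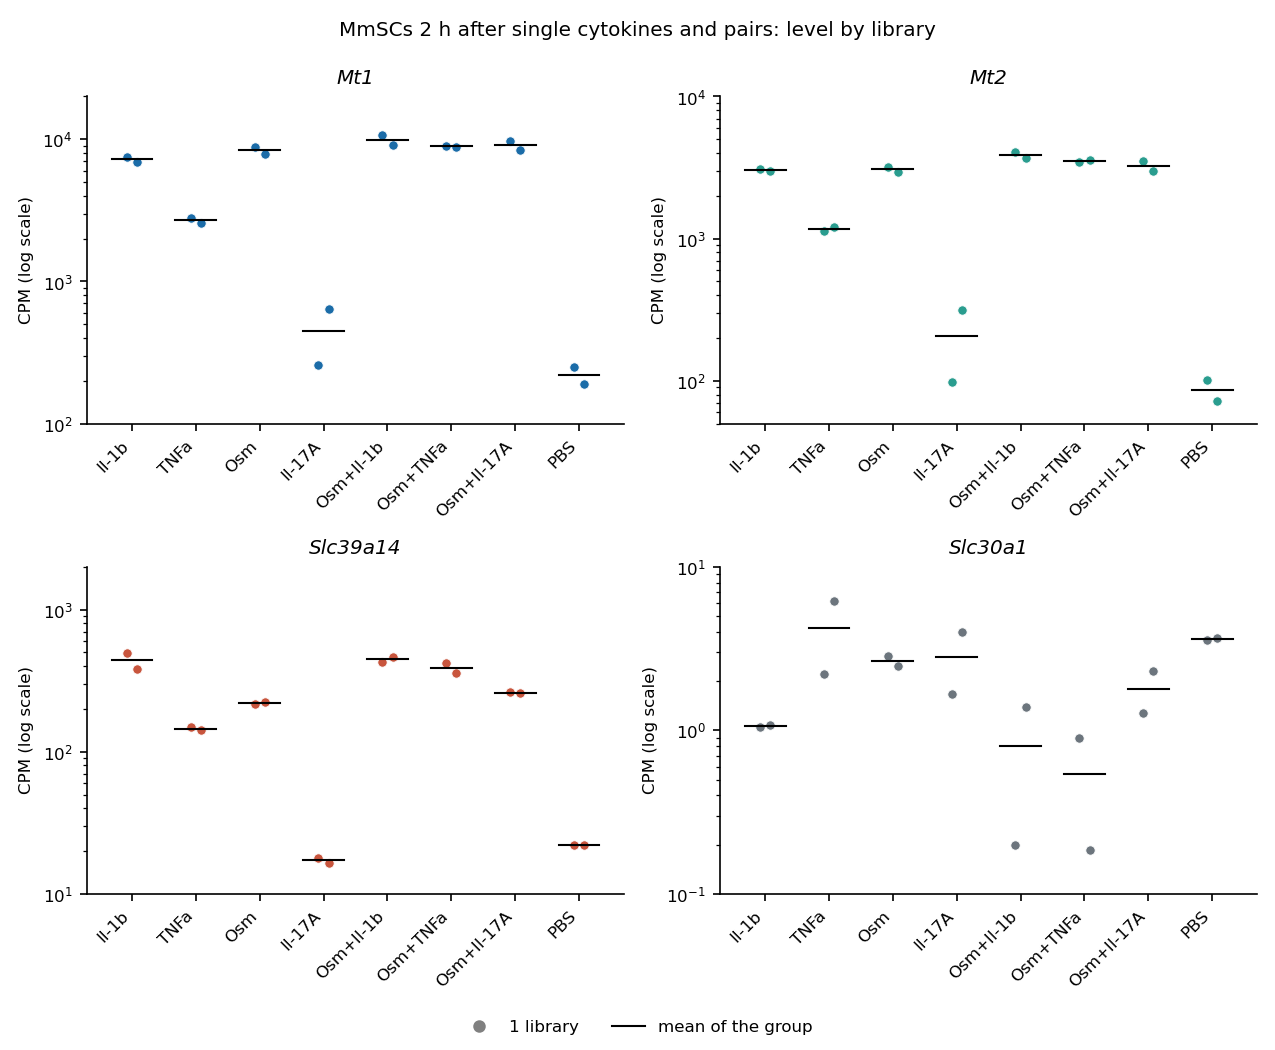
CPM of each gene (log axis) in MmSCs 2 h after single cytokines or pairs with Osm, and after PBS, with 1 point per library and a line at the group mean. Mt1 and Mt2 lie close together in all groups that hold Osm or Il-1b, while Slc39a14 ranges between 142 CPM after TNFa and 497 CPM after Il-1b, and Slc39a14 after Il-17A stays near PBS.

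One day after cardiotoxin Mt1 and Mt2 rose in all 4 compartments, whereas Slc39a14 rose in CD45+ cells and MmSCs and was not called in the other two. In MmSCs, Mt1 had 1356, 1509 and 1355 CPM on day 1, against 161, 156 and 201 CPM on day 0. Mt2 had 758, 846 and 705 CPM on day 1, against 31.3, 33.2 and 64.8 CPM on day 0. Slc39a14 had 243, 192 and 180.3 CPM on day 1, against 16.9, 16.9 and 19.5 CPM on day 0. No day 1 library overlapped day 0 in any of the 3 genes. The log2 changes were 2.77 ± 0.24 for Mt1 (adjusted p = 5.55e-09), 3.92 ± 0.30 for Mt2 (adjusted p = 2.27e-09) and 3.27 ± 0.22 for Slc39a14 (adjusted p = 1.9e-10), 3 of the 4 genes, where 41.8% of the 16374 genes tested were called. The MmSC marker list (7 genes) summed to 17121 to 21556 CPM on day 1, against 36679 to 41280 CPM on day 0, the endothelial list to 8.34 to 15.9 CPM, against 85.1 to 98.3 CPM, and the myofibre list (5 genes) to 2.66 to 13.4 CPM, against 116 to 297 CPM. The leukocyte list summed to 3.93 to 8.37 CPM on day 1, against 7.35 to 12.2 CPM on day 0. The part of these lists in the changes was not tested.

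In MuSCs, Mt1 had 596, 904 and 733 CPM on day 1, against 123, 83.5 and 175 CPM on day 0. Mt2 had 357, 630.3 and 446 CPM on day 1, against 67.2, 65.7 and 101 CPM on day 0. Slc39a14 had 62.1, 95.6 and 55.9 CPM on day 1, against 84.4, 56.8 and 61.3 CPM on day 0. The metallothioneins did not overlap between days and the importer did. The log2 changes were 2.74 ± 0.24 for Mt1 (adjusted p = 7.56e-09), 2.81 ± 0.28 for Mt2 (adjusted p = 1.19e-07) and 0.27 for Slc39a14 (adjusted p = 0.326), 2 of the 4 genes, where 38.8% of genes were called. The MmSC marker list summed to 1958 to 3407 CPM in the day 1 MuSC libraries, against 1171 to 1456 CPM on day 0, and Pdgfra was 0.328, 54.9 and 28.1 CPM on day 1. The first of these libraries, with almost no Pdgfra, had the lowest day 1 values of both metallothioneins (596 CPM of Mt1 and 357 CPM of Mt2). Both values were above all day 0 MuSC libraries. The part of the MmSC list in these changes was not tested.

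In CD45+ cells, Slc39a14 had 84.0, 92.5 and 67.3 CPM on day 1, against 9.31, 6.90 and 5.42 CPM on day 0. Mt1 had 241, 284 and 258 CPM on day 1, against 119.9, 127 and 85.8 CPM on day 0. Mt2 had 29, 54 and 51 counts on day 1, against 26, 12 and 8 counts on day 0 (6.28, 10.9 and 10.2 CPM, against 5.90, 3.45 and 2.41 CPM). The days did not overlap in any of the 3 genes, though for Mt2 they came close. The log2 changes were 3.71 ± 0.25 for Slc39a14 (adjusted p = 4.19e-10), 1.48 ± 0.23 for Mt1 (adjusted p = 3.74e-05) and 1.41 ± 0.42 for Mt2 (adjusted p = 0.0122), 3 of the 4 genes, where 34.6% of genes were called. Without the third day 0 library the adjusted p of Mt2 was 0.0647. The neutrophil list (5 genes, none at 0) summed to 4740.3 to 7309.6 CPM on day 1, against 840.3 to 3227 CPM on day 0, and the MmSC list to 353 to 555 CPM, against 90.1 to 171 CPM. Their part in these changes was not tested.

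In CD31+ cells, Mt1 had 191, 213 and 199 counts on day 1, against 4, 0 and 3 counts on day 0 (30.2, 41.9 and 34.4 CPM, against 0.872, 0 and 0.914 CPM). Mt2 had 80, 110 and 81 counts on day 1, against 0 in all 3 day 0 libraries. The day 0 endothelial libraries thus held almost no metallothionein RNA, and the day 1 libraries still held less Mt1 than any uninjured library of the other compartments. The log2 change of Mt1 was 5.77 ± 0.44 (adjusted p = 2.68e-09), and Mt2 was at least 19.4-fold higher when day 0 is set to a floor of 3 counts per library (adjusted p = 5.14e-07). That is 2 of the 4 genes, where 23.5% of genes were called. Slc39a14 had 48.1, 40.7 and 48.5 CPM on day 1, against 35.5, 42.7 and 44.8 CPM on day 0 (log2 change 0.18, adjusted p = 0.582). With size factors by relative log expression the median of all genes in this comparison shifted by -0.11 on the log2 scale, and 48.4% of calls rose instead of 60.3%. The leukocyte list (7 genes) summed to 16.7 to 191 CPM on day 1, against 4.06 to 11.3 CPM on day 0, and the MmSC list to 4113 to 4573 CPM, against 3428 to 3965 CPM, while Pdgfra fell to 0.589 to 1.21 CPM on day 1, against 1.83 to 3.05 CPM. The part of these lists in the rise of Mt1 and Mt2 was not tested.

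Slc30a1 was not called on injury in any compartment. Its log2 changes were 0.57 in MmSCs, -0.25 in MuSCs, 0.22 in CD45+ cells and 0.37 in CD31+ cells, with adjusted p between 0.254 and 0.658.

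The differences between compartments were tested themselves. The injury change of Slc39a14 was larger in MmSCs than in CD31+ cells by log2 3.09 ± 0.30 (adjusted p = 6.5e-07, 12.5% of genes called) and than in MuSCs by 3.00 ± 0.30 (adjusted p = 1.13e-06, 7.64% called). Against CD45+ cells, where 25% of genes were called, the difference was -0.44 and not called (adjusted p = 0.359). For Mt1 the change in MmSCs less that in CD31+ cells was -3.0 ± 0.57 (adjusted p = 0.00109), so it was smaller in MmSCs. It was larger than in CD45+ cells by 1.29 ± 0.32 (adjusted p = 0.00436), and the difference from MuSCs was 0.03 (adjusted p = 1). For Mt2 it was larger than in CD45+ cells by 2.51 ± 0.53 (adjusted p = 0.00124) and the difference from MuSCs was 1.11 and not called (adjusted p = 0.0859), though it was with no low-count filter (1.25, adjusted p = 7.22e-05). The difference from CD31+ cells was called for Mt2 (adjusted p = 0.0395), but it rests on a group at 0 and was lost without any 1 of 7 of the 12 libraries.

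**Figure D3:**
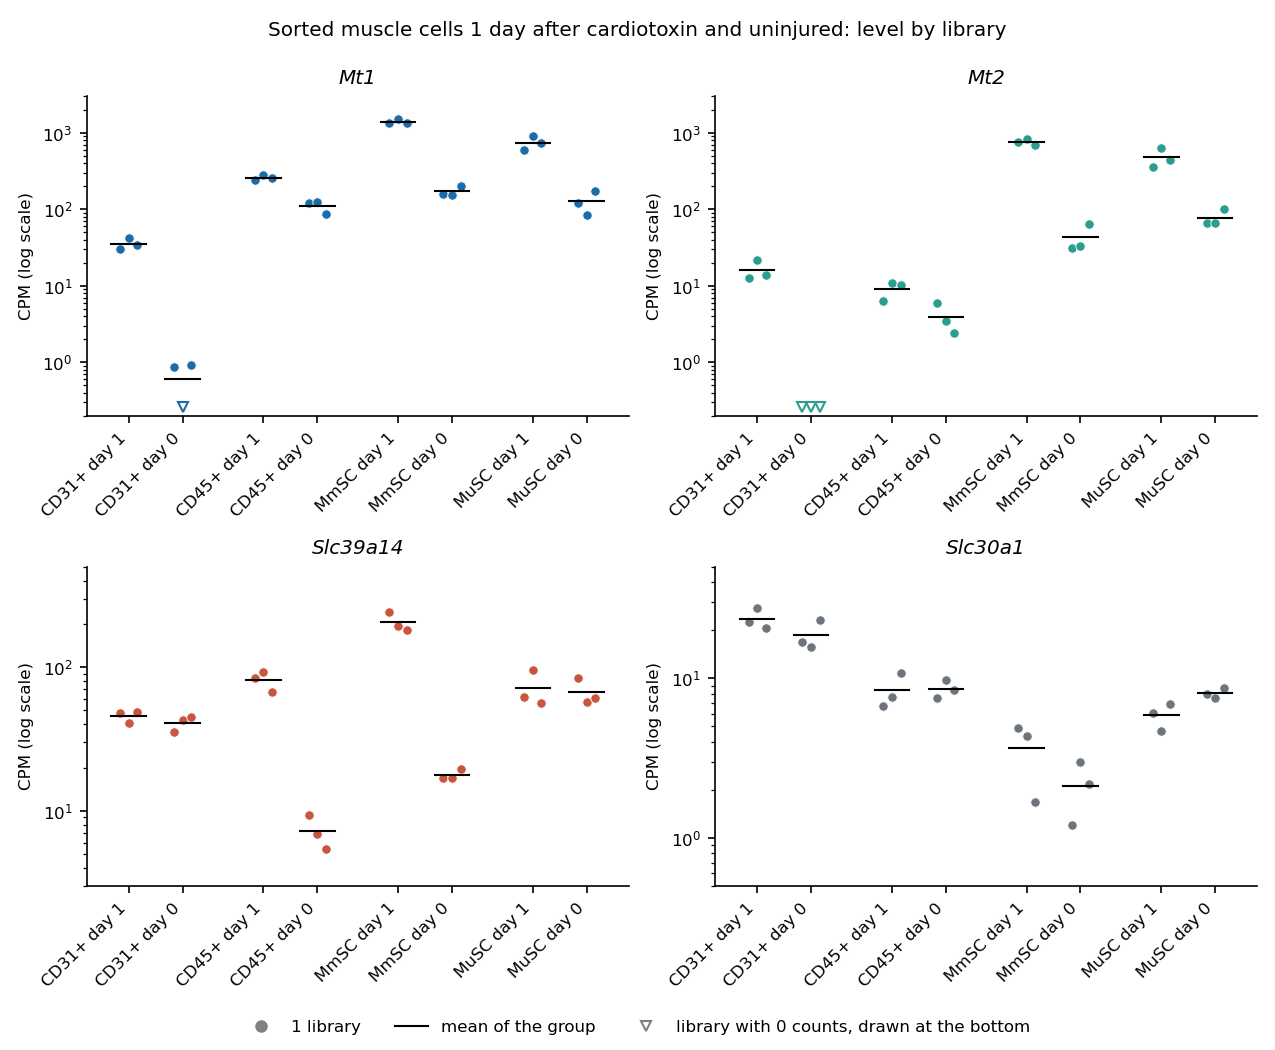
CPM of each gene (log axis, with libraries at 0 drawn at the lower edge) in CD31+ cells, CD45+ cells, MmSCs and MuSCs, with day 1 after cardiotoxin left of day 0 and 1 point per library. Mt1 and Mt2 are higher on day 1 in all 4 compartments, Slc39a14 in CD45+ cells and MmSCs, and Slc30a1 in none.

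Before injury the 4 genes had different orders across compartments. Slc39a14 averaged 67.5 ± 14.8 CPM in MuSCs, 41.0 ± 4.86 CPM in CD31+ cells, 17.8 ± 1.49 CPM in MmSCs and 7.21 ± 1.96 CPM in CD45+ cells (SD, n = 3 each). Neighbours in that order differed, except MuSCs and CD31+ cells (log2 difference 0.46, adjusted p = 0.0768), which also differed without the second MuSC library (adjusted p = 0.0411). Slc30a1 averaged 2.13 ± 0.904 CPM in MmSCs, against 18.6 ± 4.02 CPM in CD31+ cells, 8.56 ± 1.15 CPM in CD45+ cells and 8.08 ± 0.591 CPM in MuSCs, and MmSCs were below each of them (log2 differences -2.83 ± 0.37, -1.78 and -1.36, adjusted p up to 0.00605). CD31+ cells were above CD45+ cells by 1.05 (adjusted p = 0.0114), a call lost without the third CD31+ library or the first CD45+ library (adjusted p up to 0.0632).

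On the fitted scale, uninjured MmSCs held more Mt1 than CD45+ cells (log2 difference 0.88, adjusted p = 0.00251) and MuSCs (1.02, adjusted p = 0.00096). Without any 1 library, the difference from CD45+ cells was 0.62 to 0.80. In CPM, Mt1 was 156 to 201 in MmSCs, 85.8 to 127 in CD45+ cells and 83.5 to 175 in MuSCs, so MmSCs and MuSCs overlapped. The TMM factor averaged 0.829 in MmSCs, 0.989 in CD45+ cells and 1.26 in MuSCs, which widens both fitted differences. Mt2 in MmSCs was above CD45+ cells by 3.62 (adjusted p = 4.37e-08) and not called against MuSCs (-0.28, adjusted p = 0.452), unless the third MmSC library was left out (-0.84, adjusted p = 0.0242). In CPM, Mt2 was 31.3 to 64.8 in MmSCs and 65.7 to 101 in MuSCs, with no overlap. The same TMM factors make the fitted difference from MuSCs smaller than that in CPM. Against CD31+ cells, MmSCs had at least 50.8-fold more Mt2 and MuSCs at least 98.2-fold more, from the same floor. In these 6 pairs between 40.7% and 56.7% of all genes were called. They were 47% for MmSCs against CD31+ cells, 56.7% for MmSCs against CD45+ cells, 40.7% for MmSCs against MuSCs, 49.3% for MuSCs against CD31+ cells, 56.4% for MuSCs against CD45+ cells and 50.7% for CD31+ against CD45+ cells.

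Of the 10 ZIP genes tested on injury other than Slc39a14, 1 rose and 2 fell in MmSCs, where 41.8% of all genes were called (median log2 change -0.27, against -0.22 for all genes). In MuSCs 2 rose and 1 fell, where 38.8% of all genes were called, in CD45+ cells 4 rose and 1 fell, where 34.6% were, and in CD31+ cells 4 rose and none fell, where 23.5% were. In MmSCs, Slc39a10 fell by 1.94 ± 0.25 on the log2 scale (adjusted p = 1.45e-06), although it had risen by 1.91 after the mix. Slc39a1 rose in all 4, by 0.49 in MmSCs, 0.57 in MuSCs, 1.17 in CD45+ cells and 0.84 in CD31+ cells. Of the 5 ZnT genes tested other than Slc30a1, none was called in MmSCs or CD31+ cells, and Slc30a7 and Slc30a6 rose in MuSCs and CD45+ cells. Mtf1 was called in CD45+ cells, where it rose by 0.65 (adjusted p = 0.047). The copper importer Slc31a1 rose in all 4, by 0.75 in MmSCs, 1.01 in MuSCs, 1.75 in CD45+ cells and 0.62 in CD31+ cells. Mt3 had 32, 47 and 73 counts in day 1 MuSCs, against 1, 0 and 1 counts on day 0 (ratio of summed counts scaled to library totals 42.5, 95% counting interval 11.6 to 354, adjusted p = 0.000192). In the other 3 compartments it had at most 3 counts in a library.

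The 2 metallothioneins were not in 1 proportion everywhere. The ratio of Mt1 to Mt2 counts depends on the lengths of their annotated exons (1246 and 588 bases), so only its differences between groups are read. It was 25.2 to 38.4 in CD45+ cells on day 1 and 20.3 to 36.8 on day 0, against 1.78 to 1.92 and 3.10 to 5.14 in MmSCs on the same days. MuSCs stood at 1.43 to 1.67 on day 1 and 1.27 to 1.83 on day 0, below the MmSC libraries of the same day on both days, and CD31+ cells on day 1 at 1.94 to 2.46, above the day 1 MmSCs. These 3 differences were not tested. The CD45+ libraries did not overlap the MmSC libraries on either day, and day 1 MmSCs lay below day 0 MmSCs. The contrasts of CD45+ cells with MmSCs on each day and of MmSCs between days each gave p = 0.1 in a 2-sided exact permutation test of the log2 ratio (n = 3 each), the smallest p this design allows. In the cytokine experiment the ratio stayed between 2.02 and 2.96 in all 21 libraries. Together Mt1 and Mt2 made up 1.06 to 1.07% of all counts 2 h after the mix, 1.58% at 4 h and 1.19 to 1.28% at 8 h, against 0.0262 to 0.0352% after PBS.

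**Figure D4:**
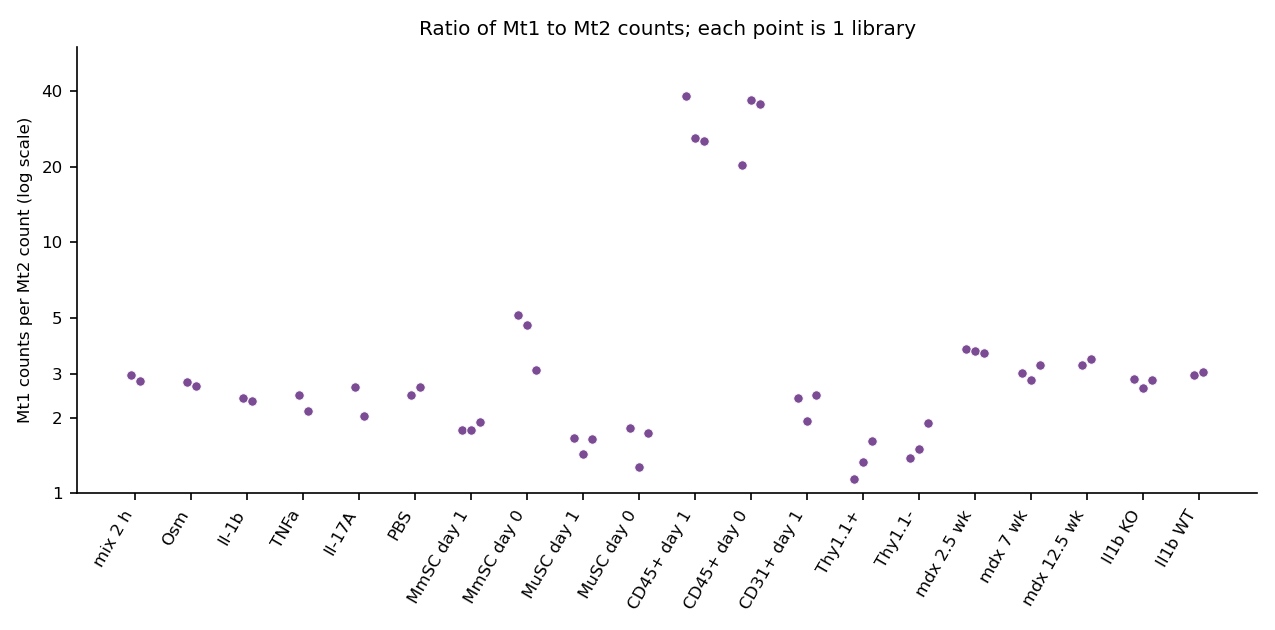
Mt1 counts per Mt2 count (log axis) in groups of sorted cells, with 1 point per library and day 1 left of day 0. CD45+ libraries lie between 20.3 and 38.4, and MmSC libraries of the same experiment between 1.78 and 5.14.

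In mdx MmSCs, where fibres degenerate without an injected toxin, Slc39a14 changed with age between 2.5 and 7 weeks, and the metallothioneins were not called. Slc39a14 had 24.1, 41.7 and 36.7 CPM at 2.5 weeks, 202, 237 and 189.6 CPM at 7 weeks and 199 and 208 CPM at 12.5 weeks. The youngest mice did not overlap the older ones, and the 7-week and 12.5-week libraries overlapped. Mt1 had 1542, 2311 and 1980.5 CPM at 2.5 weeks, 1712, 1956 and 1681 CPM at 7 weeks and 2730.2 and 2642 CPM at 12.5 weeks. Mt2 had 411, 628 and 549 CPM at 2.5 weeks, 569.8, 689.7 and 516 CPM at 7 weeks and 841 and 767 CPM at 12.5 weeks. Both overlapped between the 2 younger ages and were highest at 12.5 weeks.

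At 7 against 2.5 weeks the log2 change was 2.67 ± 0.18 for Slc39a14 (adjusted p = 6.97e-08), -0.07 ± 0.15 for Mt1 (adjusted p = 0.732) and 0.22 for Mt2 (adjusted p = 0.287). Slc30a1 had 29, 34 and 38 counts at 2.5 weeks, 23, 14 and 16 at 7 weeks and 14 and 7 at 12.5 weeks, and its change at 7 weeks was -1.0 ± 0.35 (adjusted p = 0.0321). So 2 of the 4 genes were called, where 44.6% of the 13160 genes tested were. The call of Slc30a1 was lost without the third 2.5-week library or any 7-week library (adjusted p up to 0.122) and with DESeq2. At 12.5 against 7 weeks (5.9% of genes called), Mt1 alone of the 4 was called, at 0.69 ± 0.16 (adjusted p = 0.021), and the call was lost without any 1 of the 5 libraries (adjusted p up to 0.22). At 12.5 against 2.5 weeks (26.3% called) all 4 were called, Mt1 at 0.62 ± 0.16 (adjusted p = 0.0114), Mt2 at 0.76 ± 0.18 (adjusted p = 0.006), Slc39a14 at 2.72 ± 0.19 (adjusted p = 2.27e-07) and Slc30a1 at -1.38 ± 0.43 (adjusted p = 0.0297). Without 12.5-week library 1 the calls of Mt1, Mt2 and Slc30a1 were lost, without library 2 those of Mt1 and Slc30a1, and without the third 2.5-week library that of Slc30a1 (adjusted p up to 0.168). Of the 10 ZIP genes tested at 7 against 2.5 weeks, Slc39a14 included, 6 rose and 1 fell (median log2 change 0.48, against -0.02 for all genes). Among those that rose were Slc39a11 (1.35), Slc39a7 (0.86) and Slc39a1 (0.42). The endothelial list summed to 378 to 437 CPM at 2.5 weeks and 43.3 to 49.4 CPM at 7 weeks, and the satellite-cell list to 40.2 to 44.3 CPM at 2.5 weeks and 457 to 519 CPM at 7 weeks, of which Vcam1 made up 13.6 to 34.6 CPM and 439 to 499.9 CPM and Pax7 at most 0.452 CPM. Their part in the changes of the 4 genes was not tested.

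Within MmSCs sorted 12 h after cardiotoxin, Mt2 was higher in the Thy1.1+ library of each same-numbered pair and was called with the pairs as a block, while none of the 4 genes was called without the block. The third pair of libraries stood apart. Il6 itself was 77.4, 53.6 and 259 CPM in Thy1.1+ libraries, against 48.1, 22.7 and 61.6 CPM in Thy1.1- libraries. Mt1 had 1958, 2394 and 7592 CPM in Thy1.1+ libraries, against 2062, 2192 and 7304 CPM in Thy1.1- libraries. Mt2 had 1725, 1798 and 4709.6 CPM in Thy1.1+ libraries, against 1494, 1466 and 3828 CPM in Thy1.1- libraries. Slc39a14 had 266, 219 and 343 CPM in Thy1.1+ libraries, against 218, 158 and 364 CPM in Thy1.1- libraries. The third library of both gates held far more Mt1 and Mt2 than the others, and the gates overlapped in all 3 genes when the pairs are not considered. Within pairs, Mt2 was higher in Thy1.1+ in 3 of 3, and Mt1 and Slc39a14 in 2 of 3.

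The log2 differences were 0.09 ± 0.72 for Mt1, 0.33 ± 0.58 for Mt2, 0.20 ± 0.37 for Slc39a14 and 0.44 for Slc30a1, with adjusted p between 0.891 and 0.976. None of the 4 genes and 0% of the 11975 genes tested were called by edgeR without a block, while 1258 had an unadjusted p under 0.05 and DESeq2 called 114. Same-numbered libraries deviated together in this experiment, so they pair the samples. With the replicate number as a block, 1286 genes were called and Mt2 was among them, at 0.32 (adjusted p = 0.0372), while Mt1 was at 0.09 (adjusted p = 0.599) and Slc39a14 at 0.28 (adjusted p = 0.156). Without the third library of both gates and with the block, Mt2 was at 0.32 (adjusted p = 0.0376) and Slc39a14 at 0.45 (adjusted p = 0.0206).

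Deletion of Il1b did not detectably change the members 1 day after cardiotoxin. Slc39a14 had 101, 105 and 112 CPM in Il1b-KO MmSCs, against 106 and 109.7 CPM in Il1b-WT MmSCs. The log2 difference was -0.02 ± 0.10 (adjusted p = 0.974, 95% interval -0.24 to 0.20). Mt1 had 1164, 1121 and 1550.4 CPM in Il1b-KO MmSCs, against 1202 and 1735 CPM in Il1b-WT MmSCs (log2 difference -0.20, adjusted p = 0.745). Mt2 had 407, 428 and 549.7 CPM in Il1b-KO MmSCs, against 406 and 568 CPM in Il1b-WT MmSCs (-0.07, adjusted p = 0.915). The groups overlapped in all 3. Slc30a1 had 7, 10 and 25 counts in Il1b-KO MmSCs, against 25 and 40 in Il1b-WT MmSCs (-0.95 ± 0.49, adjusted p = 0.501). None of the 4 was called, where 1.21% of the 12102 genes tested were (146 genes). That count came to 7 to 15 without any 1 Il1b-KO library and to 670 without the first Il1b-WT library.

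Whole muscle 7 days after cardiotoxin held little of any member. Mt1 had 52.5, 19.5 and 57.4 CPM with anti-Cxcl5, against 42.1, 58.1 and 47.9 CPM with IgG. Mt2 had 10.6, 1.17 and 7.91 CPM with anti-Cxcl5, against 7.97, 12.3 and 11.6 CPM with IgG. Slc39a14 had 9.83, 4.67 and 4.33 CPM with anti-Cxcl5, against 9.92, 6.13 and 6.93 CPM with IgG. The groups overlapped, and the second anti-Cxcl5 library was lowest for both metallothioneins. The log2 differences were -0.29, -0.78, -0.37 and -0.12 for Mt1, Mt2, Slc39a14 and Slc30a1, with adjusted p between 0.862 and 0.976, and none was called, where 0.03% of the 13346 genes tested were.

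**Figure D5:**
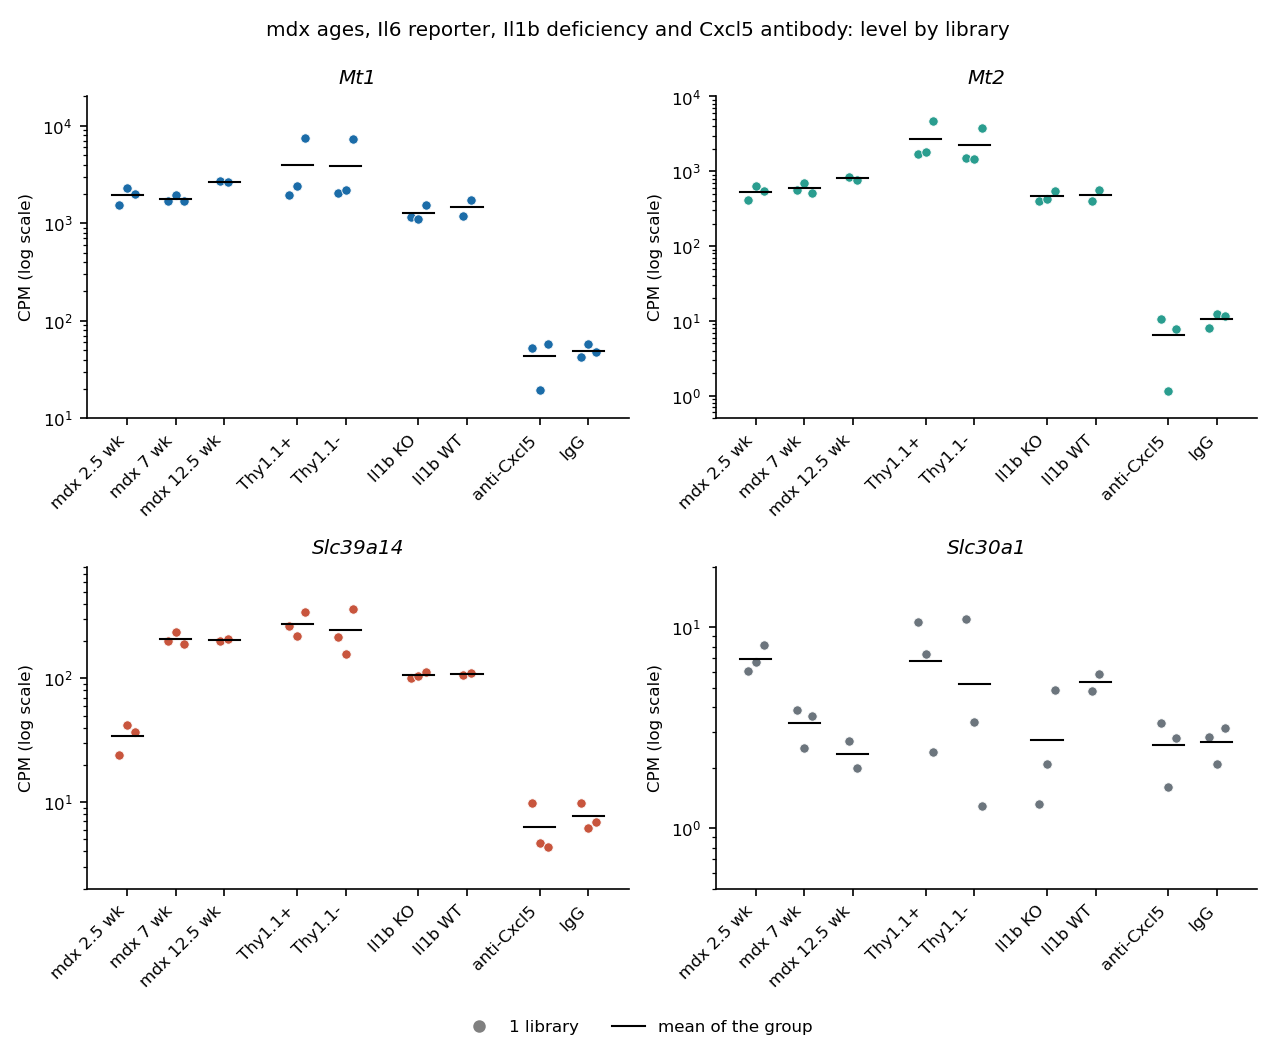
CPM of each gene (log axis) in MmSCs of mdx mice aged 2.5, 7 and 12.5 weeks, in MmSCs of the reporter mice (Thy1.1+ left of Thy1.1-), in Il1b-KO and Il1b-WT MmSCs, and in whole muscle with anti-Cxcl5 or IgG, with 1 point per library. Slc39a14 is below 42 CPM at 2.5 weeks and at or above 189.6 CPM later, and the third library of both reporter gates is high in Mt1 and Mt2.

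Across all 28 groups, ordered by mean CPM within each gene, the 4 h mix library was highest for Mt1 (11065 CPM), Mt2 (4782 CPM) and Slc39a14 (875 CPM). CD31+ cells on day 0 were lowest for Mt1 (0.595 ± 0.516 CPM) and Mt2 (0 CPM), anti-Cxcl5 whole muscle for Slc39a14 (6.28 ± 3.08 CPM). Slc30a1 was highest in CD31+ cells on day 1 (23.6 ± 3.68 CPM) and lowest in MmSCs after Osm with TNFa (0.541 ± 0.501 CPM). Of the 27 pairs of neighbours in each order, the libraries overlapped in 20 for Mt1, 16 for Mt2, 16 for Slc39a14 and 25 for Slc30a1, so most steps of these orders are within the spread. Levels across experiments were scaled by library totals alone.

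Over the 26 groups of sorted cells, mean log2 CPM of Mt1 and Mt2 had a Pearson correlation of 0.955. Mt1 and Slc39a14 had 0.758, Mt2 and Slc39a14 0.802, and Mt1 and Slc30a1 -0.803. These are descriptions over groups that share cell type, depth and experiment. Among 8808 genes of at least moderate level, those most like Mt1 were Slc7a6 (0.938), an amino acid transporter, Sh3pxd2b (0.930) and Dram1 (0.916), and those most like Mt2 were Slc7a6 (0.947), Rcl1 (0.931) and Heatr3 (0.922). Those most like Slc39a14 were Sod2 (0.895), the manganese superoxide dismutase of mitochondria, Saa3 (0.859), an acute-phase protein, and Sphk1 (0.858), the kinase that makes sphingosine-1-phosphate. Those most like Slc30a1 were Kif5b (0.861) and Notch1 (0.857).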

How the data were processed

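Per the submitters' processing notes, reads were aligned with STAR 2.7.3a and counted with featureCounts (builds mm10 and GRCm38); the annotation version and strand setting were not given, and reads of overlapping antisense genes cannot be told apart. The authors deposited 1 table of whole-number counts per gene, with no normalization, for 55011 gene symbols and 70 libraries of 2252373 to 8408842 counts. Every library was mapped to its group by its title, and no column was left unused.

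From these counts, each of the 6 experiments was fitted alone with edgeR 4.0.16 in R 4.3.3 (TMM factors, filterByExpr with a minimum count of 10, glmQLFit and glmQLFTest, 1 mean per group, no block, Benjamini-Hochberg adjustment over all genes tested, called at an adjusted p under 0.05). The SE is |log2 change|/√F. CPM is a count scaled to its library total, and counting intervals (95%) and the floor of 3 counts per library cover counting error only. Overlap of libraries between groups is a description and not a test. The share of all genes whose groups did not overlap was not counted. Members and lists were chosen with earlier results of these data known, and a list's members were named if they were among the 4 with the smallest p of those called. Genes most like a member were ranked by Pearson correlation of log2(CPM + 1) over groups. Same-numbered libraries of the 2 reporter gates deviated together (r of 0.518 to 0.761 for each pair over genes). Numbers were taken to pair libraries where r was over 0.1 for each of at least 3 numbers, which no other comparison met. Comparisons with fewer than 3 shared numbers, among them all cytokine comparisons, could not meet this, so their pairing is undecided. Uninjured MmSCs against CD31+ cells had r of 0.098 to 0.200. Alternatives were DESeq2 1.42.0, relative log expression factors, no low-count filter, only the 2 groups compared, the replicate block and leaving out each library. On simulated counts for mix at 2 h against PBS, the fit recovered 48% of 2-fold, 92% of 4-fold and 100% of 8-fold changes (50 genes each, 14121 tested, 12 false calls). The simulation gave all genes the same dispersion and changed a far smaller share of genes than the 38.5% called in the data. The changed genes had higher mean counts than Slc30a1, so these shares do not cover it.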

Additional observations from a re-analysis of the deposited data

Results flagged for a closer look

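The effect of Osm differed with and without Il-1b in a test of the interaction: the term was -4.92 ± 0.35 (log2, SE) for Mt1, -4.92 ± 0.43 for Mt2 and -3.43 ± 0.20 for Slc39a14, with edgeR adjusted p of 1.51e-08, 2.28e-07 and 1.24e-09. The same held with and without TNFa, at -3.58 ± 0.35 for Mt1, -3.62 ± 0.42 for Mt2 and -1.97 ± 0.20 for Slc39a14 (adjusted p = 4.2e-06, 2.72e-05 and 6.05e-06). The injury change differed between MmSCs and CD31+ cells by -3.0 ± 0.57 for Mt1 (adjusted p = 0.00109), -5.36 ± 1.67 for Mt2 (adjusted p = 0.0395) and 3.09 ± 0.30 for Slc39a14 (adjusted p = 6.5e-07). The Mt2 value depends on the prior count that edgeR adds, since Mt2 had 0 counts in all day 0 CD31+ libraries, and gives no bound. Between MmSCs and CD45+ cells it differed by 1.29 ± 0.32 for Mt1 (adjusted p = 0.00436) and 2.51 ± 0.53 for Mt2 (adjusted p = 0.00124), and between MmSCs and MuSCs by 3.00 ± 0.30 for Slc39a14 (adjusted p = 1.13e-06).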

How the results depend on the processing

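Of 152 changes of the 4 genes, 137 kept their direction and their side of the threshold under every alternative that kept all libraries, and 116 did when each library was left out in turn. The 152 leave out Slc30a1 at 8 h against 2 h, between single cytokines and in pairs against Osm alone. They also leave it out in the interactions and in the differences of injury change between compartments. The cause of the others was not tested. Values are log2 changes. With only the 2 groups compared, Il-17A against PBS was 1.02 for Mt1 and 1.25 for Mt2, neither called, and Mt2 at 12.5 against 7 weeks was called at 0.53. With no low-count filter, calls were gained for Mt1 at 8 h against 2 h (-0.32), Mt1 and Mt2 in Osm with Il-1b against Osm (0.43 and 0.53), both in the interaction of Osm with Il-17A (-0.91 and -1.17), Mt2 between MmSC and MuSC injury (1.25) and Mt2 at 12.5 against 7 weeks (0.49). They were lost for Slc30a1 between CD31+ and CD45+ cells on day 0 (0.93), at 7 (-0.94) and at 12.5 against 2.5 weeks (-1.36). DESeq2 also lost the last 2 (-0.99 and -1.39), and it and relative log expression factors turned Mt2 at 8 h against 2 h, not called, to -0.0060 and -0.0068. The replicate block gave Mt2 between reporter gates 0.32, called, and Slc30a1 at 12.5 against 2.5 weeks -1.30, not called, and changed no other call. Without replicate 3 in both gates, chosen after seeing the data, the block called Mt2 (0.32) and Slc39a14 (0.45). Leaving out 1 library at a time lost calls within these ranges: Slc30a1 at 8 h after the mix (-3.59 to -2.06), after Osm with TNFa (-3.82 to -1.68), on day 0 in CD31+ against CD45+ cells (0.85 to 1.19), at 7 weeks (-1.12 to -0.82) and at 12.5 against 2.5 weeks (-1.67 to -1.17), Mt1 after Il-17A (0.25 to 1.56), at 12.5 against 7 (0.60 to 0.75) and against 2.5 weeks (0.43 to 0.78), and Mt2 after Il-17A (0.18 to 1.88), in CD45+ injury (1.14 to 1.96), in MmSC against CD31+ injury (-5.47 to -4.84) and at 12.5 against 2.5 weeks (0.56 to 0.91). It gained calls for Slc30a1 after Osm with Il-1b (-3.67 to -0.91), the interaction of Osm with Il-17A (Mt1 -1.43 to -0.12, Mt2 -1.79 to -0.082), Mt2 in MmSC against MuSC injury (0.87 to 1.75) and on day 0 (-0.84 to -0.043), Slc39a14 in MuSCs against CD31+ cells on day 0 (0.25 to 0.59) and Mt2 at 7 against 2.5 weeks (0.038 to 0.40). It turned the sign of changes that were not called in the fit as reported: Slc30a1 after TNFa (-0.55 to 0.88) and Il-17A (-1.11 to 0.15) and with anti-Cxcl5 (-0.37 to 0.13), Mt1 in MmSC against MuSC injury (-0.28 to 0.40), in MuSCs against CD45+ cells on day 0 (-0.45 to 0.092), between reporter gates (-0.90 to 1.09), with anti-Cxcl5 (-0.51 to 0.063), at 7 against 2.5 weeks (-0.24 to 0.11) and in Il1b-KO cells (-0.46 to 0.13), Mt2 at 8 h against 2 h (-0.068 to 0.11), in Osm against Il-1b (-0.092 to 0.0062), between gates (-0.43 to 1.07) and in Il1b-KO cells (-0.32 to 0.22), and Slc39a14 at 8 h against 2 h (-0.24 to 0.094), between gates (-0.070 to 0.71), at 12.5 against 7 weeks (-0.0080 to 0.14) and in Il1b-KO cells (-0.069 to 0.032). Counts of all genes called moved most for Il-17A against PBS (1210 with only the 2 groups, against 790), Osm with Il-17A against Osm (444 with no filter, against 195), the interaction of Osm with Il-17A (670 with DESeq2 and with no filter, against 409), the reporter gates (114 with DESeq2, 360 with no filter and 1286 with the block, against 0), anti-Cxcl5 (159 with no filter and 0 with the block, against 4), 12.5 against 7 weeks (2027 with only the 2 groups, against 777) and Il1b-KO (232 with DESeq2 and 594 with no filter, against 146). Leaving out replicate 3 of both gates, they called 526 genes and, with the block, 1281. Without 1 library, the count moved by over 1.5 times in 19 of 42 comparisons. It came to 100 to 334 for Il-17A, 1182 to 1579 (against 2361) for TNFa, 137 to 481 for 12.5 against 7 weeks, 1684 to 4788 (against 3465) for 12.5 against 2.5 weeks, 7 to 670 for Il1b-KO, 0 to 4 for anti-Cxcl5 and 0 to 2 for the gates. Slc30a1, at 1 to 41 counts in cytokine libraries, is limited by depth.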
